A study of Mus musculus with 8 samples.

Results

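The 32 genes described here mark the neural cells of the brain, 13 of them neurons, 9 astrocytes and 10 oligodendrocytes. They were taken by name: every gene probe of the array whose gene name equals one of the 32 was used, which gave 43 of the 55681 gene probes and 32 of the 34821 gene names. Neurons had 16 of these probes, astrocytes 13 and oligodendrocytes 14. Their signals were measured in resident microglia, sorted as GFP+ cells, and in invading macrophages, sorted as RFP+ cells, from C57BL/6 mice that carried transplanted bone marrow. All brains had undergone 30 min of MCAo (occlusion of the middle cerebral artery) and 7 days of reperfusion, with no further treatment, so that no sample came from an uninjured brain. Each of 4 animals, A to D, gave 1 sample of either group (replicates 1 to 4), and each of the 8 samples was amplified by a global PCR of its cDNA and hybridised to a one-colour array. The labels name no sorting marker beyond the fluorescent protein, give no age, and do not say which protein the host cells and which the transplanted cells carried.

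Neurons signal through synapses, astrocytes keep the water, ion and transmitter balance around them, and oligodendrocytes wrap axons in myelin. Microglia and macrophages descend from other lineages, and after ischemia both take up dying neural cells and myelin debris. Transcripts of neural genes in a sorted myeloid sample are therefore read as a sign of neural RNA in it, although some of the 32 genes are not restricted to neural cells. Glul and Cnp are also expressed by myeloid cells, Gja1 by endothelial and stromal cells, and Mal by T cells. Fewer cells of a type and less RNA per cell cannot be told apart in such samples.

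The sequences of 2 genes carry much of what follows. Snap25, which encodes a synaptic membrane protein that drives vesicle fusion in neurons, has a single probe on this array. That 60-base probe (mm9, chr2:136607709-136607768, plus strand) starts with a run of 10 CA units, shown in capitals among its first 30 bases. A probe of Itgam, an integrin chain of myeloid cells (chr7:135261755-135261814, plus strand), starts with the same 20 bases. Probes of Tacr2, a tachykinin receptor (chr10:61728517-61728576, plus strand), and Oprm1, an opioid receptor (chr10:3308332-3308391, minus strand), hold runs of 12 and 13 units, shown within bases 19 to 48 and 20 to 49 of the probe. Tacr2 and Oprm1 were chosen as examples after their values were seen.
Snap25: CACACACACACACACACACAaagtggattt
Itgam: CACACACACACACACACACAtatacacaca
Tacr2: tgCACACACACACACACACACACACAtgta
Oprm1: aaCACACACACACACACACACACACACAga

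Map2, which encodes a microtubule-associated protein of dendrites, has 3 probes, all on the plus strand of chromosome 1 in mm9. Probes A_55_P2059307 (chr1:66488543-66488602) and A_52_P22763 (chr1:66488783-66488842) start 240 bases apart, while A_55_P2059312 (chr1:66463380-66463439) starts 25163 bases before the nearer one. Their first 30 bases are shown because the 3 probes gave different results, and none of the 3 holds a repeat like that of Snap25. Exon and UTR positions of the probes were not determined here.
A_55_P2059312: aaacctgctatcaaatacactagaccaact
A_55_P2059307: acacagatgtggggtagaagagagatataa
A_52_P22763: taatacttatgtttgtgtttttacacctag

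Signals are given as log2 values relative to the 75th percentile of the array's gene probes, so that 0 is that percentile, and a probe counts as measured on an array where the scanner software found it well above background. Between 50.5% and 57.1% of all gene probes were well above background on a microglia array, and between 45.7% and 56.8% on a macrophage array. The groups differed in their own markers, in level more than in presence. Macrophages had lower signals at 10 of 17 probes of microglial genes and higher ones at none. Of 12 tested probes of monocyte genes 8 were higher and none was lower (limma, adjusted p under 0.05). Yet 16 or 17 of the 17 microglial probes were above background on every macrophage array, with sums of 285 to 752 against 1485 to 1860 in microglia. Of 15 monocyte probes 9 to 13 were above background on microglia arrays, with sums of 99.8 to 147 against 184 to 235 in macrophages. Blocking on the animal left 5 microglial and 3 monocyte probes called in these directions, where 2.50% of all tested probes were lower and 1.20% higher. Without macrophage replicate 2 the counts were 15 and 8, at 7.08% lower and 7.46% higher over all tested probes. One array stood apart. On macrophage replicate 2, from animal B, all 20 probes of 12 endothelial genes were well above background, and their summed signal was 1170 times the 75th percentile, against 143, 208 and 34.9 on macrophage replicates 1, 3 and 4 and 8.72 to 39.1 on the microglia arrays. On the other macrophage arrays 16 to 19 of these 20 probes were measured, and on the microglia arrays 7 or 8. Of 8 probes of mural cells, 7 were measured on macrophage replicate 2 and at most 3 on any other array, and of 5 erythroid probes 5 and at most 2. Differences below that rest on this array are therefore also given without it, and the part that other cell types had in the results was not tested.

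Neural probes were measured in both groups, at a share below that of all gene probes on 6 of the 8 arrays. On microglia replicates 1 to 4, 16, 15, 22 and 16 of the 43 neural probes were measured (37.2%, 34.9%, 51.2% and 37.2%). On macrophage replicates 1 to 4 the numbers were 20, 26, 20 and 21 (46.5%, 60.5%, 46.5% and 48.8%). Macrophage replicates 1 and 2 differed from the rest in this respect, since there the neural share, 46.5% and 60.5%, lay above the share of all gene probes, 45.7% and 56.8%.

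**Figure D1:**
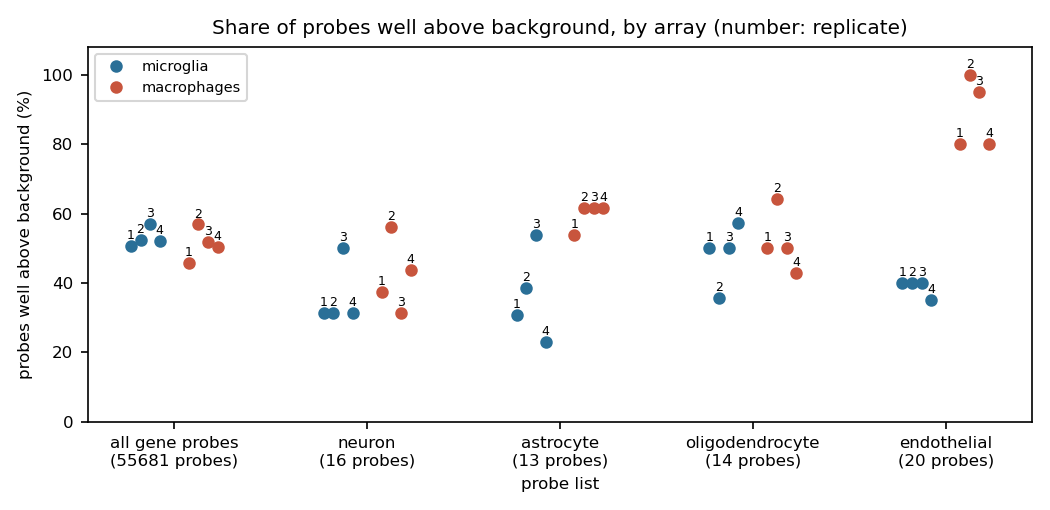
Each point is 1 array: the share (%) of probes well above background among all gene probes, the neuron, astrocyte and oligodendrocyte probes, and, for comparison, the probes of endothelial genes. Numbers above points are replicates. The astrocyte probes of the macrophage arrays lie at 53.8% to 61.5%, those of the microglia arrays at 23.1% to 53.8%, and the endothelial probes separate the groups without overlap.

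By cell type, 5, 5, 8 and 5 of the 16 neuron probes were measured on the microglia arrays and 6, 9, 5 and 7 on the macrophage arrays, so that the groups overlapped. For astrocytes, 4, 5, 7 and 3 of 13 probes were measured in microglia and 7, 8, 8 and 8 in macrophages, and the groups met at 7. The 14 oligodendrocyte probes gave 7, 5, 7 and 8 in microglia and 7, 9, 7 and 6 in macrophages, again with overlap. Genes sorted into 4 classes by their best probe: 7 genes (Snap25, Tubb3, Aqp4, Glul, Mbp, Cnp and Olig2) had a probe above background on all 8 arrays, 9 on 4 to 7 arrays, 12 on 1 to 3, and 4 (Stmn2, Nefm, Sox9 and Sox10) on none. Stmn2 and Nefm are a microtubule regulator and a neurofilament of neurons, Sox9 is a transcription factor of astrocytes, and Sox10 is one of the oligodendrocyte lineage.

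**Figure D2:**
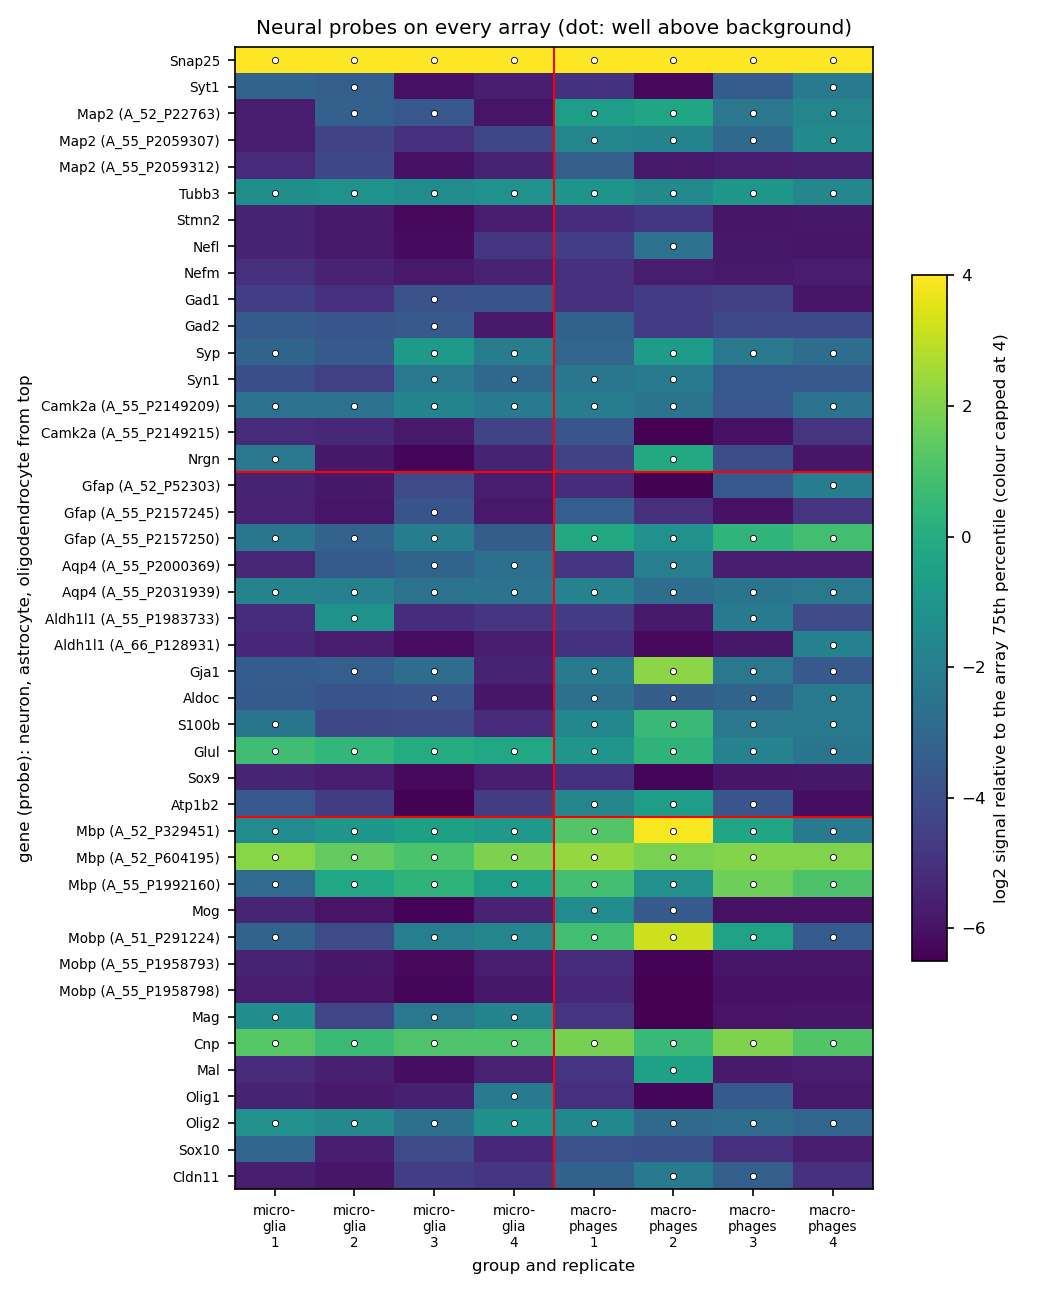
Rows are the 43 probes, columns the 8 arrays, and colour is the log2 signal relative to the array's 75th percentile, capped at 4. White dots mark probes well above background, and red lines separate the groups and the 3 cell types. Snap25 is above the colour scale on every array, while the rows of Stmn2, Nefm, Sox9 and Sox10 hold no dot.

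Macrophages were compared with microglia to ask whether the 2 groups carried neural transcripts to a different degree. Of the 19 member probes (16 genes) that were measured on at least 4 arrays and therefore tested, 3 were higher in macrophages and none was lower (limma, Benjamini-Hochberg adjusted p under 0.05 over all 29359 tested probes). One of the 3, Map2 probe A_55_P2059307, reached 4 arrays through macrophages alone, and a probe measured in 3 arrays of 1 group, such as Mag below, could not enter. When all gene probes were tested, whatever their signal, 3 members were called higher and 1, Mag, lower. Among all tested probes 2.34% were called higher and 4.11% lower. On scalings by the array's median or by the 75th percentile of always-measured probes, the median of all gene probes moved by 0.21 and -0.16, and 53.2% and 25.4% of all calls were higher, against 36.3% here, with the same number of member calls. The 3 probes stand for 2 genes, Map2 and Gfap, and the 2 Map2 probes lie next to each other. With the animal as a block, 2 of the 3 probes were called, at a background of 1.20% higher and 2.50% lower. At an unadjusted p under 0.05 (limma), 6 of the 19 probes differed, with Glul the only lower one, beside 6899 of all 29359 tested probes. In 5 of the 19 the groups did not overlap, all 5 higher in macrophages. All 5 were measured on every macrophage array, which by itself met the filter of 4 arrays. Mag, lower in macrophages without overlap, was kept out by that filter, so the filter helped to set this direction. Of all tested probes, 7.30% had every macrophage array above every microglia array and 9.39% had it below. Leaving out microglia replicate 4 or macrophage replicate 1 left 1 probe called higher.

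Over all 43 probes, measured or not, 27 had a higher mean in macrophages, beside 28507 of 55681 gene probes. The sign at a probe below background has no meaning of its own. The median difference was 0.16 for neuron probes, 0.95 for astrocyte probes and 0.40 for oligodendrocyte probes, beside 0.01 over all gene probes (log2, macrophages minus microglia). Without macrophage replicate 2 these medians were 0.19, 1.02, 0.34 and 0.15. Without macrophage replicate 4 the astrocyte median was 0.21. With all arrays the astrocyte median was the value of Aldh1l1 probe A_66_P128931, which was measured on macrophage replicate 4 alone. The neuron median lay between the values of Map2 probe A_55_P2059312, measured on no array, and Syp. The oligodendrocyte median lay between those of Cnp and Mbp probe A_52_P604195, both measured on every array. Of 30 probes that were above background on a macrophage array, 14 had their highest macrophage signal on replicate 2, and 6, 4 and 6 on replicates 1, 3 and 4.

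Snap25 gave a strong signal on every array of both groups. On microglia replicates 1 to 4 its log2 signals were 9.19, 8.62, 8.88 and 9.18, and on macrophage replicates 1 to 4 they were 9.48, 8.97, 8.78 and 8.81. The groups overlapped throughout, the difference was 0.04 (SE 0.26, adjusted p = 0.940), and macrophages were higher in 2 of 4 animals. This probe was among the brightest 1% of gene probes on every array, in samples where Stmn2 and Nefm were not measured at all, but the signals of different probes do not rank their transcripts.

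The CA run shown above set this probe apart from the other members, none of which held more than 2 CA units in a row or more than 2 GT units, the same repeat read on the other strand. On the whole array 34 of 55681 probes (0.061%) held a run of at least 8 CA units. All 34 were well above background on all 8 arrays, 30 of them were in the brightest 1% on every array, and none was called between the groups (limma, 0 called and 0 with an unadjusted p under 0.05). Their differences ranged from -0.00 to 0.47, with a median of 0.10. Below that length the share of probes above background on all 8 arrays was 38.0% for 0 or 1 unit, 37.7% for 2, 43.8% for 3, 71.7% for 4 or 5 (184 probes) and 92.6% for 6 or 7 (27 probes). The 71 probes with at least 8 GT units were likewise all measured on all 8 arrays, and none was called (0 with an unadjusted p under 0.05).

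**Figure D3:**
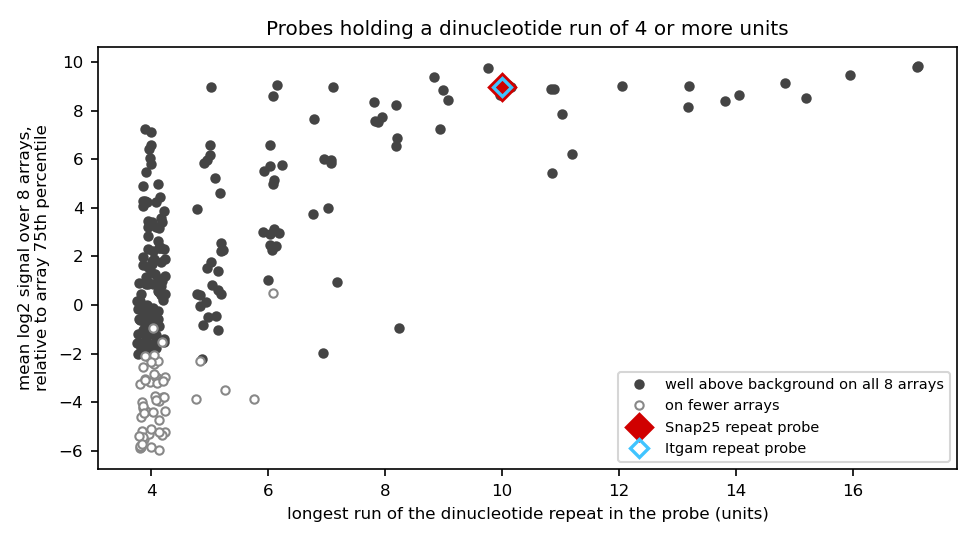
Each point is a probe with 4 or more CA units in a row, by the length of the run (units, slightly spread sideways) and its mean log2 signal over the 8 arrays relative to the 75th percentile. Filled points were well above background on all 8 arrays, and the diamonds mark the Snap25 probe and the Itgam repeat probe, which lie together at 10 units. From 8 units on no open point remains.

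Genes with a repeat probe and another probe allowed a check within genes. There were 22 such gene names with 36 other probes, of which 13 were measured on all 8 arrays and 14 on none, although every one of the repeat probes was measured on all 8. Oprm1 is an example, with 3 other probes that were above background on 0, 3 and 0 arrays. The Itgam probe that starts with the same bases as that of Snap25 was another. It read 9.03, 8.62, 8.79 and 9.09 in microglia and 9.53, 8.94, 8.80 and 8.87 in macrophages, a difference of 0.15, while the other 2 Itgam probes differed by -0.87 and -0.74.

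Relative to its own mean over the arrays, the Snap25 probe stood at 0.20, -0.37, -0.11 and 0.19 on microglia replicates 1 to 4 and at 0.49, -0.02, -0.21 and -0.18 on macrophage replicates 1 to 4. The median over the 33 other repeat probes was 0.11, -0.26, -0.16 and 0.14 in microglia and 0.44, -0.03, -0.16 and -0.07 in macrophages. The signs were the same on all 8 arrays, and both were highest on macrophage replicate 1 and lowest on microglia replicate 2. The summed signal of all gene probes was also highest on macrophage replicate 1 (331081). It was lowest on macrophage replicate 2 (220558), with microglia replicate 2 next (226586). Equally bright probes without the repeat were not compared, so whether the match is specific to repeat probes is not known. Which RNA the Snap25 probe binds was not tested, and with no second probe its signal cannot be set against another measurement of the gene. All summed neuronal signals below leave it out, and summed signals include probes that were not above background.

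Map2 was called higher in macrophages at both of its neighbouring probes. Probe A_55_P2059307 read -5.71, -4.33, -5.03 and -4.27 in microglia, on no array above background, and -1.66, -1.78, -2.89 and -1.49 in macrophages, above background on all 4. The groups did not overlap, so that macrophages were necessarily higher in 4 of 4 animals. The signal was at least 3.62-fold higher in macrophages, against the lowest measurable signal of each microglia array (group means -4.83 ± 0.68 and -1.96 ± 0.63, SD, n = 4). The limma difference was 2.88 (SE 0.43, adjusted p = 0.006). The probe entered the test only through the macrophage arrays. With all gene probes tested its adjusted p was 0.011 (limma), and with the animal as a block it was 0.025. Normexp background correction shrank the difference to 0.87, still called (limma adjusted p = 0.030). Without macrophage replicate 2 the difference was 2.82, but with any macrophage array left out the probe was measured on 3 arrays and not tested.

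At A_52_P22763 the microglia signals were -5.64, -3.29, -3.67 and -5.89, those of replicates 2 and 3 above background, and the macrophage signals were -0.67, -0.33, -2.35 and -1.70, all above background. Again the groups did not overlap, so that macrophages were higher in 4 of 4 animals. The difference was 3.36 (SE 0.70, adjusted p = 0.026), which is 4.96-fold where signals below an array's measurable minimum were raised to it. The call was lost with the animal as a block (adjusted p = 0.058) and was kept without macrophage replicate 2 (difference 3.05, adjusted p = 0.034). With normexp background correction the difference was 1.28 (limma adjusted p = 0.021). A_55_P2059312, the distant probe, read -5.22, -4.25, -6.01 and -5.45 in microglia and -3.30, -5.77, -5.64 and -5.57 in macrophages, on no array above background. Within the first slide, which held microglia replicates 1 and 2 and macrophage replicate 1, and within the second, which held the other 5 arrays, the differences were 3.79 and 3.32 at A_52_P22763 and 3.36 and 2.59 at A_55_P2059307. With 2 against 1 and 2 against 3 arrays these are given as sizes and not as tests. Leaving out microglia replicate 1, microglia replicate 4 or macrophage replicate 1 ended the call of A_52_P22763 (adjusted p = 0.076, 0.081 and 0.072).

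**Figure D4:**
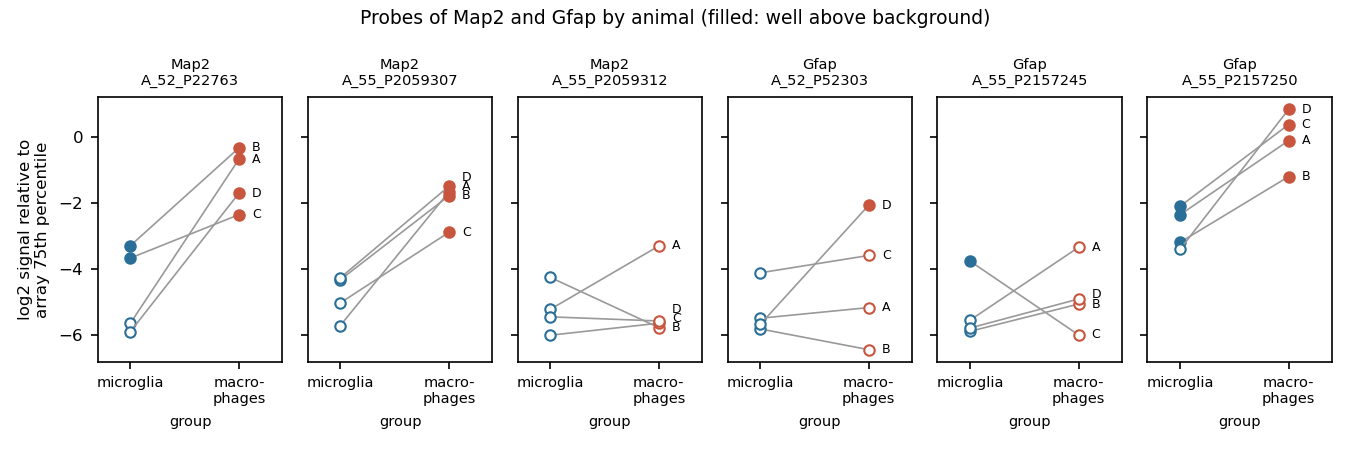
Log2 signal (relative to the array's 75th percentile) of the 3 Map2 and the 3 Gfap probes in microglia and macrophages, with a line for each animal, A to D. Filled circles are well above background. At 2 Map2 probes and 1 Gfap probe the groups do not overlap, so that all 4 lines rise. The remaining 3 probes are measured on at most 1 array each.

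Tubb3, a tubulin of young and mature neurons (mm9, chr8:125945850-125945909, plus strand), was the other neuronal gene measured on all 8 arrays. It read -1.26, -1.12, -1.38 and -1.17 in microglia and -1.08, -1.46, -0.94 and -1.65 in macrophages. The groups overlapped and all 8 values lay within 0.71 of each other (difference -0.05, SE 0.24, limma adjusted p = 0.925). No other member measured on all 8 arrays had a narrower range, and the sign of its difference depended on the scaling.

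Synaptic genes were measured on part of the arrays of each group. Syp, a synaptic vesicle protein, was above background on 3 arrays of either group, Syn1, which tethers such vesicles, on 2 of either, and Camk2a, a kinase of excitatory synapses, on 4 microglia and 3 macrophage arrays at probe A_55_P2149209. Their groups overlapped, with differences of 0.16 (SE 0.69), 0.52 (SE 0.56) and -0.43 (SE 0.38) and limma adjusted p = 0.912, 0.610 and 0.528. The Syp difference was -0.32 without macrophage replicate 2. The second Camk2a probe was never above background. Syt1, the calcium sensor of vesicle release, and Nrgn, a calmodulin-binding protein of dendrites, were each measured on 1 array of each group, Nrgn at -2.35 on microglia replicate 1 and at -0.12 on macrophage replicate 2. Gad1 and Gad2, which make the transmitter GABA, were measured on microglia replicate 3 alone (-3.83 and -3.56), and Nefl, a neurofilament, on macrophage replicate 2 alone (-2.58).

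Summed over the neuron probes other than Snap25, the linear signal was 1.37, 1.28, 1.82 and 1.38 times the 75th percentile on the microglia arrays and 2.45, 3.72, 1.56 and 1.81 on the macrophage arrays. Macrophage replicates 1 and 2 lay above the microglia range, and replicates 3 and 4 lay within it.

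Of the astrocyte genes Gfap was called, the intermediate filament that reactive astrocytes make in quantity around an infarct. Its probe A_55_P2157250 (mm9, chr11:102748864-102748923, minus strand) read -2.36, -3.20, -2.11 and -3.41 in microglia, the first 3 above background, and -0.12, -1.21, 0.37 and 0.83 in macrophages, all above background. The groups did not overlap, so that macrophages were higher in 4 of 4 animals. The signal was 6.67-fold higher in macrophages (group means -2.77 ± 0.63 and -0.03 ± 0.87, SD, n = 4). The limma difference was 2.74 (SE 0.49, adjusted p = 0.014). Blocking on the animal kept the call (adjusted p = 0.039). Macrophage replicate 2 had the lowest Gfap signal of the macrophage arrays, opposite to its place among the endothelial probes, and without it the difference was 3.13 (adjusted p = 0.003). Within the 2 slides the differences were 2.66 and 2.76, and with normexp background correction the difference was 1.57 (limma adjusted p = 0.013). Leaving out microglia replicate 2 or 4 ended the call (adjusted p = 0.060 and 0.055).

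The other 2 Gfap probes were measured on 1 array each. A_52_P52303, which starts 2949 bases away, was measured on macrophage replicate 4 (-2.07), and A_55_P2157245, 913 bases further on, was measured on microglia replicate 3 (-3.76). Their accession is that of another Gfap transcript than that of the called probe. The rise of Gfap thus rests on 1 of 3 probes.

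S100b, a calcium-binding protein of astrocytes (mm9, chr10:75723783-75723842, plus strand), and Aldoc, a glycolytic enzyme that marks them, were both measured on 1 of 4 microglia and on 4 of 4 macrophage arrays. S100b read -2.44, -4.20, -4.16 and -5.22 in microglia and -1.61, 0.58, -2.28 and -2.27 in macrophages. For Aldoc the values were -3.53, -3.76, -3.73 and -5.84 in microglia and -2.64, -3.41, -3.12 and -2.26 in macrophages. In neither gene did the groups overlap, so that both were higher in macrophages in 4 of 4 animals. Neither gene passed the threshold (limma, differences 2.61, SE 0.77, and 1.36, SE 0.54, adjusted p = 0.083 and 0.171). Without macrophage replicate 2 the S100b difference was 1.95 (adjusted p = 0.068).

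Gja1, the gap junction protein connexin 43, was measured on 2 microglia and 4 macrophage arrays. It read -3.40, -3.31, -2.74 and -5.46 in microglia and -2.12, 2.16, -2.29 and -3.57 in macrophages. One value, that of macrophage replicate 2, lay far above the rest, the groups overlapped, and the difference of 2.27 (SE 1.17, limma adjusted p = 0.280) was 1.06 without that array. Atp1b2, a sodium pump subunit of astrocytes, was above background on macrophage replicates 1, 2 and 3 alone, at -1.69, -0.67 and -3.67, and was not tested. Its group means differed by 1.81, or by 1.02 without replicate 2.

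Aqp4, the water channel of astrocyte endfeet, was measured on all 8 arrays. Probe A_55_P2031939 read -1.82, -1.90, -2.55 and -2.50 in microglia and -1.83, -2.75, -2.44 and -2.28 in macrophages, with overlap. The difference of -0.13 (SE 0.30, limma adjusted p = 0.825) was smaller than the SD within either group (0.39 and 0.38, n = 4), and its sign depended on the scaling. Its second probe was measured on 2 microglia arrays and 1 macrophage array. Aldh1l1, a folate enzyme used to define astrocytes, was measured at 1 probe on microglia replicate 2 (-1.11) and macrophage replicate 3 (-2.23) and at the other on macrophage replicate 4 (-1.90).

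Glul, the glutamine synthetase that recycles glutamate (mm9, chr1:155756765-155756824, plus strand), had lower values in macrophages. It read 0.79, 0.47, -0.05 and -0.21 in microglia and -1.02, 0.31, -1.83 and -2.42 in macrophages, above background on all 8 arrays. Macrophages were lower in 4 of 4 animals, with overlap of the groups at macrophage replicate 2 (difference -1.49, SE 0.56, limma adjusted p = 0.156). Without that array the difference was -2.002 and passed the threshold (adjusted p = 0.017), where 7.08% of all tested probes were called lower and 7.46% higher. With that array kept, Glul was called lower only with the animal and the slide as blocks together, a fit with few residual degrees of freedom.

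The summed linear signal of the 13 astrocyte probes was 2.80, 2.65, 1.96 and 1.51 in microglia and 2.99, 8.84, 2.73 and 3.32 in macrophages. Macrophage replicate 2 was the highest, and macrophage replicate 3 lay within the microglia range.

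Myelin genes were measured in both groups and none of the 6 tested oligodendrocyte probes was called (limma, 0 called and 0 with an unadjusted p under 0.05). Mbp, the myelin basic protein, has 3 probes, all above background on all 8 arrays. Probe A_52_P604195 varied least. Microglia read 2.12, 1.46, 1.04 and 1.94, and macrophages read 2.36, 1.89, 2.05 and 2.03 (difference 0.44, SE 0.29, adjusted p = 0.395). The groups overlapped, although macrophages were higher in 4 of 4 animals.

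Probe A_52_P329451, whose 60 bases are spread over 2305 bases of the genome and so span an intron, read -1.42, -0.95, -0.55 and -0.84 in microglia and 1.17, 3.90, -0.30 and -2.19 in macrophages. Macrophage replicate 2 was the highest array and macrophage replicate 4 the lowest, and the difference of 1.59 (SE 1.10, limma adjusted p = 0.422) was 0.50 without replicate 2. Probe A_55_P1992160 ordered the macrophage arrays differently. It read -2.82, -0.26, 0.31 and -0.60 in microglia and 0.85, -1.21, 1.69 and 1.07 in macrophages, with replicate 2 the lowest of its group, and differed by 1.44 (SE 0.80, adjusted p = 0.315). Both probes carry the same transcript accession, and probe A_52_P604195 lies between them, 36460 bases after A_55_P1992160 and 14337 bases before A_52_P329451.

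Mobp, another structural myelin protein, was measured at 1 of its 3 probes, A_51_P291224. It read -3.16, -4.08, -1.99 and -1.71 in microglia, all but the second above background, and 0.81, 3.20, -0.46 and -3.43 in macrophages, all above background. The order of the macrophage arrays was that of Mbp probe A_52_P329451, with replicate 2 highest and replicate 4 lowest. The groups overlapped, and the difference was 2.77 (SE 1.25, limma adjusted p = 0.225), or 1.71 without replicate 2. Its other 2 probes were above background on no array.

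Mog, a protein of the outer myelin surface, was measured on macrophage replicates 1 and 2 alone, at -1.42 and -3.52. Cldn11, the tight junction protein of myelin, was measured on macrophage replicates 2 and 3 alone, at -2.21 and -3.32, and Mal, a membrane protein of myelin, on macrophage replicate 2 alone, at -0.48. None of these 3 was tested.

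Mag, an adhesion protein on the inner myelin surface (mm9, chr7:31684202-31684261, minus strand), was measured in microglia alone. It read -1.34, -4.32, -2.29 and -1.79 in microglia, above background on replicates 1, 3 and 4, and -4.93, -6.47, -5.95 and -5.88 in macrophages, above background on none. The groups did not overlap, and the signal was at least 2.94-fold lower in macrophages. With 3 arrays above background the probe was not tested in the comparison. When all gene probes were tested, whatever their signal, it was called lower (limma adjusted p = 0.030). Thus of the myelin genes with a probe measured in only 1 group, Mog, Cldn11 and Mal were measured in macrophages and Mag in microglia.

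**Figure D5:**
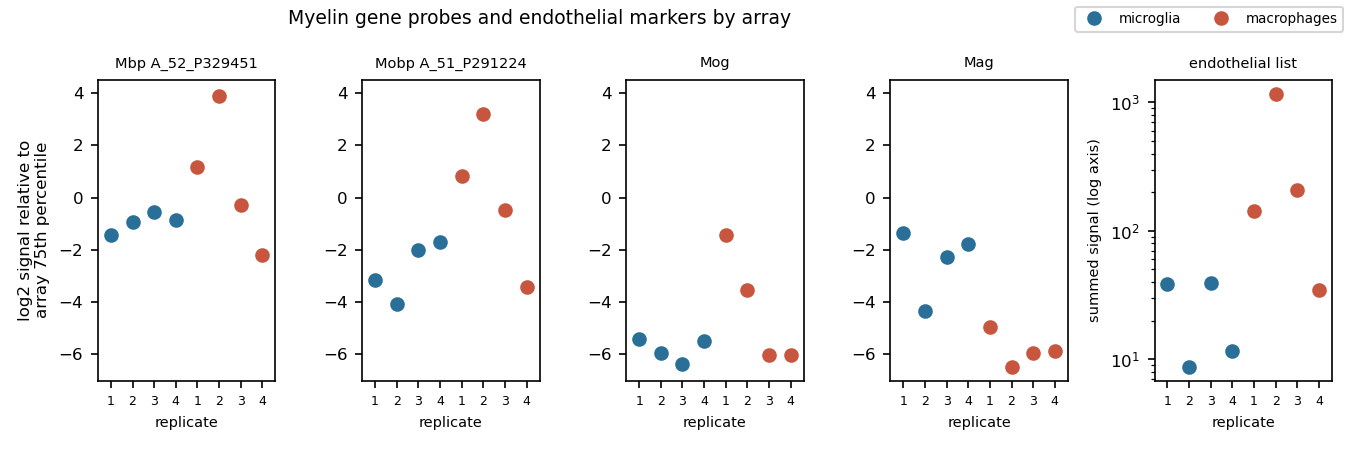
The first 4 panels give the log2 signal (relative to the array's 75th percentile) of probes of 4 myelin genes on microglia (blue) and macrophage (red) replicates 1 to 4, and the last the summed linear signal of 20 endothelial probes on a log axis. Macrophage replicate 2 is the highest array for Mbp probe A_52_P329451, Mobp and the endothelial list, and Mag was above background on no macrophage array.

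Cnp, a phosphodiesterase of myelin, was above background on all 8 arrays. Microglia read 1.28, 0.66, 1.11 and 1.10, and macrophages read 1.86, 0.62, 1.97 and 1.14 (difference 0.36, SE 0.34, limma adjusted p = 0.567), with overlap. Olig2, a transcription factor of the oligodendrocyte lineage, was likewise measured on all arrays. It read -1.18, -1.55, -2.64 and -1.21 in microglia and -1.61, -2.85, -2.77 and -3.08 in macrophages, lower in macrophages in 4 of 4 animals without passing the threshold (difference -0.93, SE 0.44, adjusted p = 0.241). Its relative Olig1 was measured on microglia replicate 4 alone (-2.19).

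The summed linear signal of the 14 oligodendrocyte probes was 8.49, 6.28, 6.93 and 8.58 in microglia and 15.6, 31.0, 13.3 and 8.96 in macrophages. Every macrophage array lay above every microglia array, the nearest pair at 8.96 and 8.58. Such a sum is weighted to its brightest probes. On all microglia arrays and macrophage replicate 4 these were Mbp probe A_52_P604195 and Cnp. The groups overlapped at both, and Cnp is also expressed by myeloid cells. On macrophage replicate 4, Mbp probe A_52_P329451 (-2.19) lay below every microglia array, Mobp (-3.43) within their range and Mbp probe A_55_P1992160 (1.07) above them. With Mbp probe A_52_P604195 and Cnp left out, the sum of macrophage replicate 4 fell just below that of microglia replicate 3. The separation of the sums thus rested on these brightest probes. The order of the macrophage arrays, replicate 2 first and replicate 4 last, was not that of the astrocyte sum, where replicate 3 was last.

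Other genes of the same 3 cell types gave a mixed picture. Of 9 tested probes of 20 other neuronal genes 1 was lower in macrophages and none higher. Without macrophage replicate 2, where 7.08% of all tested probes were lower, 2 of these neuronal probes were lower. Of 11 tested probes of 15 other astrocyte genes 1 was higher and 1 lower, and of 8 tested probes of 14 other oligodendrocyte genes none was called (limma, 1 with an unadjusted p under 0.05). None of 2 tested probes of oligodendrocyte precursor genes was called (0 with an unadjusted p under 0.05). The called genes were Vim, Slc1a3 and Rtn1, named after their values were seen.

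Vim, the filament of reactive astrocytes and of most mesenchymal and myeloid cells, was 3.76-fold higher in macrophages (5.12 ± 0.57 in microglia and 7.04 ± 0.30 in macrophages, SD, n = 4; limma adjusted p = 0.011). Slc1a3, the glutamate transporter GLAST, was 93.9-fold lower in them where signals under an array's measurable minimum were raised to it (3.64 ± 0.11 and -2.96 ± 0.96, SD, n = 4; limma adjusted p = 9.2e-05), with 2 macrophage arrays above background. Rtn1, a reticulon of the endoplasmic reticulum, was 9.17-fold lower on the same footing (0.03 ± 0.40 and -3.38 ± 0.86, SD, n = 4; limma adjusted p = 0.003), also with 2 macrophage arrays above background. In both genes the groups did not overlap and all 4 microglia arrays were above background. Which cells of the microglia samples held these transcripts was not tested, so they are not read here as astrocyte or neuronal RNA.

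Sept4 and Enpp2, genes of oligodendrocytes that other cells also express, had their highest signals on macrophage replicate 2, at 4.58 and 3.82. The summed signal of the 19 other oligodendrocyte probes was 4.15, 6.51, 3.04 and 3.38 in microglia and 9.88, 64.3, 7.22 and 3.46 in macrophages. As for the members, replicate 2 was the highest macrophage array and replicate 4 the lowest, and here replicate 4 lay within the microglia range.

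Markers of further cell types were measured beside the neural genes. Fibroblast probes were above background at 1 to 4 of 6 on microglia arrays and at 4 of 6 on each macrophage array, with 1 of 4 tested called higher (none with the animal as a block, 2 without macrophage replicate 2). Ependymal and choroid plexus probes stood at 2 or 3 of 7 and at 1 or 2 of 7, with none of 1 tested called (1 with an unadjusted p under 0.05). Lymphocyte probes stood at 2 or 3 and at 3 to 6 of 11, with 1 of 3 called higher (none under the block). All 6 neutrophil probes were measured on every array, and none was called (2 with an unadjusted p under 0.05), whereas 1 was higher under the block and 1 without macrophage replicate 2. Of 15 tested endothelial probes 6 were higher, 3 under the block and 4 without macrophage replicate 2. The 1 tested erythroid probe was higher, though not under the block, and no mural probe reached 4 arrays (limma throughout, no probe of these lists lower). Over all tested probes 2.34% were called higher, 1.20% under the block and 7.46% without macrophage replicate 2.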

How the data were processed

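RNA of 8 sorted samples (4 of microglia, 4 of macrophages) was amplified by a proprietary global PCR of bead-isolated mRNA and labelled with Cy3, per the labels' protocols. Such amplification can change transcript proportions. Per the file headers, the authors read the arrays with Agilent Feature Extraction 10.7.3.1, and each deposited array file gives a background-subtracted processed intensity per spot, with probe coordinates in mm9. A table of log2 values that the authors also deposited served as an alternative. Its column medians were 4.604 to 4.606, each column tracked its array at r = 0.996 to 1.000, and how it was normalized and centred is not given in the sources used.

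Each array had 62976 spots, of which 3671 control spots were left out. Outlier-flagged gene spots (131 to 195 per array) were left out, no gene spot was saturated, spots of a probe were averaged as log2, and the 75th percentile of the array was taken off. Probes well above background on at least 4 of 8 arrays (29359 of 55681) were tested with lmFit and eBayes of limma 3.58.1 (R 4.3.3), macrophages minus microglia, two-sided, per probe, with Benjamini-Hochberg adjustment over all of them and a threshold of 0.05. The fit was tested on simulated data. The number of arrays limits the precision. The main fit does not pair the 2 samples of an animal. Its p-values rest on the spread between the 4 arrays within each group, where animal, amplification and slide are not separated. A bound ("at least") sets the mean of the brighter group against the dimmer arrays, where a signal under the lowest one well above background on that array is raised to it. Tables and figures were made in Python 3.11.15 using numpy 2.4.6, pandas 2.3.3 and matplotlib 3.10.9.

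The 32 genes, the other lists and the tests were chosen with earlier results of these data known. One gene of the other lists is not reported here and was left out of its list's counts and sums. Every member was accounted for, and values on every array were given for all probes of Snap25 and Map2, for called probes and for members measured on all arrays. Values per array of other members, the repeat search (CA or GT units on the probe's own strand, overlaps within a run counted once) and its example genes were chosen after the values were seen.

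Both groups came from the same 4 animals, per the labels, which pairs the samples. As a check of this pairing, samples were correlated over tested probes, each taken as its deviation from its group mean. Between an animal's 2 samples the correlation was 0.042, 0.098, 0.070 and -0.018 for animals A to D. For B and C the microglia sample correlated most with the macrophage sample of its own animal, for A and D with that of another. The check thus bore out the pairing for B and C only. The blocked value stands beside a result or a list's count where it changed the call. Slide 1 held 3 arrays and slide 2 held 5, and scan runs coincided with slides.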

Additional observations from a re-analysis of the deposited data

Results flagged for a closer look

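In 57 groups of 4 arrays that were checked for a single array far from the others (Dixon's test), 6 stood out, where chance flags about 1 in 20 groups. In 4 of them the array was well above background and the others were not. These were Aldh1l1 probe A_55_P1983733 on microglia replicate 2 (-1.11, others -5.13 to -4.92), Olig1 on microglia replicate 4 (-2.19, others -5.73 to -5.51), Gfap probe A_55_P2157245 on microglia replicate 3 (-3.76, others -5.89 to -5.55) and Mal on macrophage replicate 2 (-0.48, others -5.74 to -4.92). The remaining 2 were low and not above background. They were Gad2 on microglia replicate 4 (-5.77, others -3.69 to -3.52) and Aldoc on microglia replicate 4 (-5.84, others -3.76 to -3.53).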

How the results depend on the processing

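All values are log2 differences of macrophages minus microglia or counts of the 43 probes. The 3 probes called higher fell to 0 within slide 1, within slide 2, with the animal and the slide as blocks together, and among the 9 probes measured on all arrays, where none of the 3 was left to test. With the animal as a replicate block 2 were called, and leaving out 1 array gave 1 to 3. Slide 1 and slide 2 hold 3 and 5 arrays, too few for the missing calls to be read, and the doubly blocked fit leaves few residual degrees of freedom. The count of lower probes, 0, became 1 with both blocks (Glul, adjusted p = 0.0468), 1 with no filter (Mag), and 0 to 1 when 1 array was left out. Over the alternatives, Map2 probe A_52_P22763 was called in 11 of 18 (adjusted p = 0.0173 to 0.256), Map2 probe A_55_P2059307 in 11 of 14 (0.00492 to 0.181) and Gfap probe A_55_P2157250 in 13 of 18 (0.00300 to 0.265), with no reversal. Their differences were smallest with normexp background correction (1.28 and 0.87 for Map2, 1.57 for Gfap). The 19 probes measured on at least 4 arrays became 33 with the positive-and-significant flag, 9 with all arrays required, and 17 to 19 when 1 array was left out. The astrocyte median, 0.95, was 0.21 with normexp, 0.52 within slide 1, 1.21 with both blocks, 1.36 with 1 probe a gene, and 0.21 to 1.03 when 1 array was left out. The astrocyte median of 0.95 was the value of Aldh1l1 probe A_66_P128931. Without macrophage replicate 4 it was that of Gfap probe A_52_P52303, at 0.21. Both of these probes were measured on that array alone. The cause of the moves was not tested.

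Signs turned only for probes that were not called. Scaling by the 75th percentile of always-measured probes gave -0.115 for Snap25. Median centring gave 0.157 for Tubb3 and 0.0754 for Aqp4 probe A_55_P2031939, quantile normalization 0.0482 and 0.0481, and the authors' deposited values 0.0475 and 0.0480. The slide as a block gave -0.228 for Syp and 0.0353 for Aqp4. Within slide 1 the differences were 0.111 for Tubb3, 0.447 for Camk2a and 0.0286 for Aqp4, and within slide 2 they were -0.174 for Snap25, -0.485 for Syp, -0.458 for Syn1 and 0.0390 for Aqp4. With the animal as a replicate block and the slide as a block they were -0.0594 for Snap25, 0.0480 for Tubb3, -0.703 for Syp, -0.0920 for Syn1 and 0.109 for Aqp4. Leaving out 1 array at a time gave -0.113 to 0.119 for Snap25, -0.163 to 0.0742 for Tubb3, -0.323 to 0.686 for Syp and -0.295 to 0.0107 for Aqp4.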
